A study of Homo sapiens with 36 samples.

Results

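The neurotransmitter receptor genes described here are the subunits and receptors for glutamate, GABA, glycine and acetylcholine, chosen by gene symbol: AMPA (GRIA), kainate (GRIK), NMDA (GRIN) and metabotropic glutamate receptors (GRM), GABA-A receptor subunits (GABR), glycine receptor subunits (GLRA, GLRB), and nicotinic (CHRN) and muscarinic (CHRM) acetylcholine receptors. The symbols selected 69 of the 28516 genes in the count table, 65 of which are described. Their mRNA was measured by RNA-seq in a commercial line of human neural stem cells (hNSC), 48 h after lentiviral transduction, with 6 libraries for each of 6 conditions. For the MEIS1-OE and MEIS2-OE groups a catalytically dead Cas9 with activator domains was guided to the promoter of the transcription factor gene MEIS1 or of its paralog MEIS2, and ctrl-OE received the same activation system with a non-targeting guide. In MEIS1-KO and MEIS2-KO cutting Cas9 was expressed with guides against the coding sequence of the respective gene, as a mixture of 2 constructs per gene, and ctrl-KO carried Cas9 with a non-targeting guide. All libraries come from mixed populations of transduced cells, not from clones. The labels do not say whether the 6 libraries of a condition came from separate cultures, so the p-values measure the spread between these libraries, which may be technical.

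The libraries held 15429985 to 22940493 reads assigned to genes, and the 65 receptor genes took 2528 to 4222 of them, or 0.0141% to 0.0191%. Levels are given as counts per 1000000 (CPM) on library sizes scaled by the TMM method of edgeR, and errors are SD between libraries. MEIS1 was 17.8 ± 1.10 CPM (SD, n = 6) in ctrl-OE and 310.2 ± 14.3 CPM (SD, n = 6) in MEIS1-OE, and 25.7 ± 1.66 CPM (SD, n = 6) in ctrl-KO and 8.96 ± 1.74 CPM (SD, n = 6) in MEIS1-KO. MEIS2 was 22.6 ± 1.23 CPM (SD, n = 6) in ctrl-OE and 823.8 ± 20.04 CPM (SD, n = 6) in MEIS2-OE, and 25.8 ± 1.58 CPM (SD, n = 6) in ctrl-KO and 12.1 ± 0.936 CPM (SD, n = 6) in MEIS2-KO, so both knockouts still held target mRNA. Of the neural stem cell markers looked up, 9 of 10 reached a mean of 1 CPM (HES5 did not), with NES and VIM the most abundant. Of the neuron markers 5 of 8 did (SNAP25, SYT1, SYN1, NEFL and INA), while DCX, STMN2 and RBFOX3 did not. Of the astrocyte markers GJA1 alone did and of the microglia markers AIF1 alone, and of the 4 muscle markers none did.

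Most receptors for fast transmission are assemblies of several subunits. AMPA, kainate and NMDA receptors are channels opened by glutamate that let cations in, and an NMDA receptor requires the subunit encoded by GRIN1. GABA-A and glycine receptors are chloride channels, nicotinic receptors are cation channels opened by acetylcholine, and the metabotropic glutamate and muscarinic receptors are G protein-coupled. In neural progenitors GABA and glutamate act as signals on proliferation and migration before synapses exist, and in neurons the same receptors carry synaptic transmission.

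Of the 65 receptor genes, 16 reached a mean of 1 CPM over the 36 libraries and 8 reached 5 CPM. A total of 44 had at least 10 counts summed over all libraries and entered the tests, 21 did not, and 4 of these (CHRM1, CHRM2, GABRB1 and GLRA1) had no count in any library. A count of 0 allows up to 3 counts, which is 0.131 CPM in the deepest and 0.194 CPM in the shallowest library, or 0.00413 CPM over all libraries pooled. These limits and all intervals on counts cover counting error only. The 16 genes were 2 of 4 AMPA genes (GRIA1, GRIA4), 2 of 5 kainate genes (GRIK4, GRIK5), 4 of 7 NMDA genes (GRIN2B, GRIN2C, GRIN2D, GRIN3B), the metabotropic glutamate genes GRM2 and GRM3, 1 of 5 glycine genes (GLRB), 5 of 16 nicotinic genes (CHRNA5, CHRNA7, CHRNA10, CHRNB1, CHRNB2) and 0 of 5 muscarinic genes. Reads of CHRNA7 cannot be told apart with certainty from those of CHRFAM7A, a gene that carries a copy of part of it. CHRNA7, a subunit that forms receptors on its own, had means of 1.27 to 1.80 CPM over the 6 conditions, GRIN3B, a glycine-binding NMDA subunit, 1.03 to 1.42 CPM, and GRM2, an inhibitory metabotropic receptor, 2.36 to 3.16 CPM, and the lowest edgeR adjusted p of these 3 genes over the 9 comparisons was 0.213.

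Between genes, levels were compared per length, as CPM divided by the length of the merged exons in kilobases (RPKM). In ctrl-KO the order was led by GRM3, an inhibitory metabotropic glutamate receptor, at 11.9 ± 0.577 RPKM (SD, n = 6), then CHRNA5, an accessory nicotinic subunit, at 6.005 ± 0.574 RPKM, and GRIA1 at 5.29 ± 0.308 RPKM. In ctrl-OE it was led by CHRNB1, a subunit of the nicotinic receptor of muscle, at 6.401 ± 0.354 RPKM (SD, n = 6), followed by CHRNA5 at 4.79 ± 0.289 RPKM and GRM3 at 4.67 ± 0.433 RPKM. The neighbours CHRNA5 and GRM3 in ctrl-OE differed by less than their spread. A noncoding RNA gene on the same strand covers 14.5% of the CHRNB1 exons. On the opposite strand others cover 23.0% of the CHRNA5 exons and 18.9% of the GRM3 exons. They have no counts of their own, so the levels of these receptor genes may include their reads. With the length of the longest transcript in place of merged exons, CHRNB1 moved to 10.8 RPKM in ctrl-OE and stayed first. GRM3 (4.897 ± 0.454 RPKM), GRIK5 (4.798 ± 0.578 RPKM) and CHRNA5 (4.785 ± 0.289 RPKM) followed (SD, n = 6 each). These 3 differed by less than their spread. In ctrl-KO GRM3 stayed first and GRIA1, at 7.18 RPKM, passed CHRNA5.

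Partial sets of subunits were present in these cells. GRIN1, the subunit common to NMDA receptors, was at 0.0227 ± 0.00816 RPKM in ctrl-OE and 0.00475 ± 0.00427 RPKM in ctrl-KO (SD, n = 6 each), where its partner GRIN2D was at 0.805 ± 0.155 RPKM and 0.180 ± 0.0308 RPKM. Among the AMPA genes, GRIA2, whose edited subunit limits calcium entry, was at 0.00947 ± 0.00841 RPKM in ctrl-OE and 0.0121 ± 0.00595 RPKM in ctrl-KO, where GRIA1 was at 1.23 ± 0.156 and 5.29 ± 0.308 RPKM and GRIA4 at 0.559 ± 0.0930 and 1.54 ± 0.0753 RPKM (SD, n = 6 each). GLRB, the subunit that anchors glycine receptors at gephyrin, was at 2.66 ± 0.144 and 2.29 ± 0.284 RPKM, while the α subunit genes GLRA1, GLRA2, GLRA3 and GLRA4 reached at most 0.00303 RPKM in either control group.

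Among the nicotinic genes some α subunits were low beside CHRNB1 and CHRNB2, and others were less so. CHRNA5, at 4.79 RPKM in ctrl-OE, was above CHRNB2, and CHRNA10 was at 0.419 ± 0.0863 RPKM (SD, n = 6). The β genes CHRNB4 and CHRNB3 were low themselves, at 0.0146 and 0.00301 RPKM in ctrl-OE. CHRNA1, the α subunit of the muscle receptor, was at 0.00894 ± 0.0103 RPKM in ctrl-OE, where CHRNB1 led. CHRNA4, the usual partner of CHRNB2, was at 0.0150 ± 0.0118 RPKM in ctrl-OE, and CHRNB2 was at 2.75 ± 0.252 RPKM. CHRNA3, another α subunit, was at 0.234 ± 0.0587 RPKM in ctrl-OE and 0.0239 ± 0.0132 RPKM in ctrl-KO. CHRNA7, which forms receptors on its own, was at 0.0704 ± 0.00876 RPKM in ctrl-OE. Of the GABA-A genes tested, GABRP, the π subunit of epithelia, was at 0.00464 ± 0.00511 RPKM in ctrl-OE and 0.0771 ± 0.0177 RPKM in ctrl-KO, and GABRR2, the ρ2 subunit, which is known from the retina, at 0.0326 ± 0.0162 and 0.0701 ± 0.0189 RPKM (SD, n = 6 each). In bulk RNA of this kind, fewer cells that express a gene and less RNA per cell cannot be told apart.

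**Figure D1:**
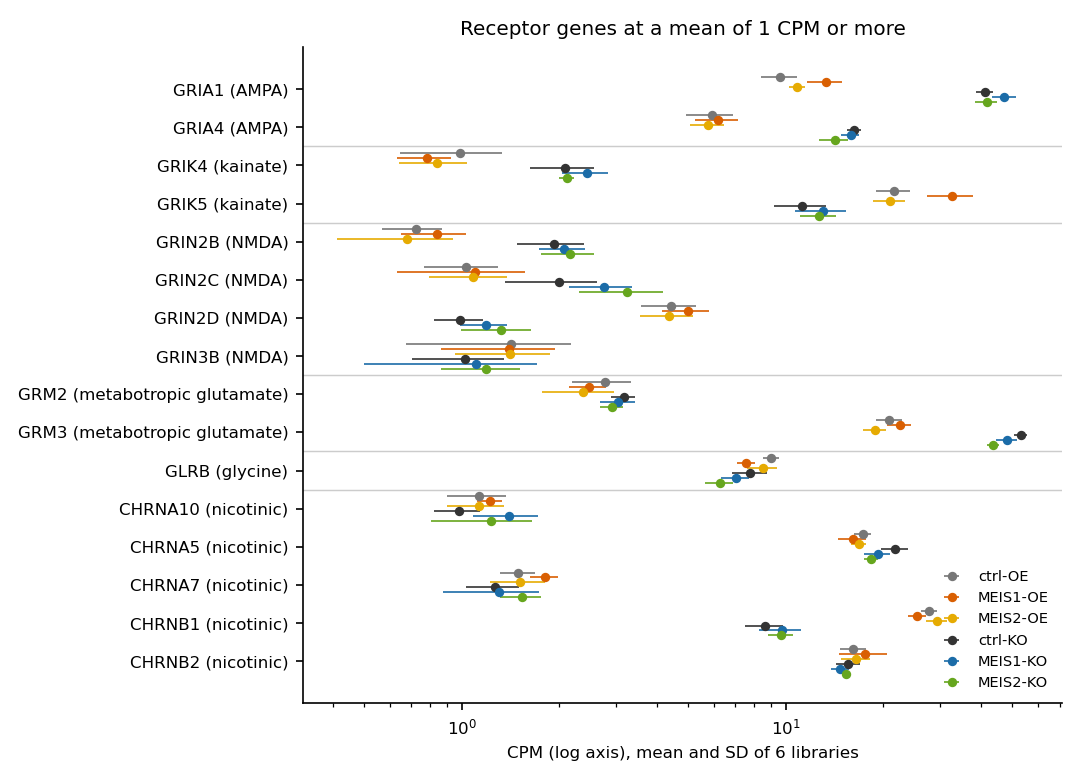
Level of the 16 receptor genes with a mean of at least 1 CPM, on a logarithmic CPM axis, with family in parentheses. Points are means and bars SD of 6 libraries per condition. GRM3, GRIA1 and GRIA4 lie higher in the 3 KO groups and CHRNB1, GRIK5 and GRIN2D lie higher in the 3 OE groups, while the means of CHRNB2 stay between 14.7 and 17.6 CPM in all 6 conditions.

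The comparison of MEIS1-OE with ctrl-OE asks which genes differ after activation of MEIS1. A single activation guide was used for MEIS1, so effects of MEIS1 and of that guide at other sites cannot be told apart. In MEIS1-OE 5 receptor genes rose and 1 fell. CHRND and CHRNA3 (nicotinic), GRIK5 (kainate), GRIA1 (AMPA) and GRM4 (metabotropic) were higher, and GLRB (glycine) was lower. The 6 genes are 13.6% of the 44 tested, and over all 19689 tested genes 9.10% were called in this comparison at an adjusted p under 0.05, with 5.52% higher and 3.58% lower. Among genes with at least 1 CPM, 3 of 16 receptor genes (18.8%) and 11.4% of all genes were called. The median log2 fold change was 0.11 over the tested receptor genes and -0.0013 over all tested genes. With the additional threshold of an absolute log2 fold change above 0.58, 4 receptor genes remained (CHRND, GRIK5, CHRNA3 and GRM4), or 9.09% of those tested, where 2.84% of all genes were called.

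CHRND encodes the δ subunit of the nicotinic receptor of muscle and lies on chromosome 2 from 233390703 to 233401377 (GRCh37, plus strand). The 6 ctrl-OE libraries held 12, 10, 12, 13, 18 and 13 counts of it, and the 6 MEIS1-OE libraries held 52, 91, 58, 108, 79 and 110. Every MEIS1-OE library was above every ctrl-OE library. The mean rose from 0.582 ± 0.145 to 3.92 ± 1.01 CPM (SD, n = 6 each), a log2 fold change of 2.76 (SE 0.21, adjusted p = 2.72e-13, edgeR quasi-likelihood test with Benjamini-Hochberg adjustment over all tested genes). In MEIS2-OE the gene was at 0.608 ± 0.192 CPM (SD, n = 6), and each of the KO groups held 2 to 4 counts of it in all 6 libraries together. The muscle markers MYOD1 and MYOG had at most 1 count in any library, MYF5 had 0, and DES stayed at or below 1.17 CPM. CHRNG, which encodes the γ subunit of the fetal muscle receptor and lies next to CHRND, from 233404402 to 233412825, had 0 to 7 counts per library in MEIS1-OE and 1 to 4 in ctrl-OE (log2 fold change 0.38, SE 0.52, adjusted p = 0.772 by the edgeR test). On the opposite strand TIGD1 covers 66.9% of the CHRNG exons, so that its counts are uncertain.

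GRIA1 encodes the GluA1 subunit of AMPA receptors (chromosome 5 from 152869175 to 153193429, plus strand). It was 8.28 to 11.3 CPM in ctrl-OE (median 9.33) and 12.02 to 16.5 CPM in MEIS1-OE (median 12.8). The groups did not overlap, and the log2 fold change was 0.47 (SE 0.08, adjusted p = 3.70e-05, edgeR). GRIA4, the other AMPA gene above 1 CPM, was 5.90 ± 0.982 CPM in ctrl-OE and 6.20 ± 0.946 CPM in MEIS1-OE (SD, n = 6 each), with an adjusted p of 0.780 in the edgeR test.

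GRIK5 encodes the GluK5 subunit, which raises the glutamate affinity of kainate receptors (chromosome 19 from 42502473 to 42574358, minus strand). The ctrl-OE libraries held 19.0 to 25.8 CPM with a median of 21.0, and the MEIS1-OE libraries 22.5 to 37.2 CPM with a median of 33.8. In MEIS1-OE 5 libraries lay above all controls, and replicate 3 at 22.5 CPM lay among them. The log2 fold change was 0.59 (SE 0.11, adjusted p = 0.000242, edgeR).

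CHRNA3, the α3 subunit of ganglionic nicotinic receptors, lies in a cluster with CHRNA5 and CHRNB4 on chromosome 15 (78885394 to 78913637, minus strand). It had 19 to 39 counts per library in ctrl-OE, with a mean of 1.12 ± 0.279 CPM, and 33 to 51 counts in MEIS1-OE, with a mean of 1.89 ± 0.359 CPM (SD, n = 6 each). In MEIS1-OE 5 of 6 libraries lay above all controls, and the log2 fold change was 0.75 (SE 0.16, adjusted p = 0.000761, edgeR). The exons of CHRNA3 and CHRNA5 overlap on opposite strands over 198 bases, or 4.16% of CHRNA3, and CHRNA5 was 17.3 ± 1.05 CPM in ctrl-OE and 16.1 ± 1.63 CPM in MEIS1-OE (SD, n = 6 each).

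The remaining calls of MEIS1-OE were less stable. GLRB (chromosome 4 from 157997277 to 158093242, plus strand) was 8.47 to 9.82 CPM in ctrl-OE (median 8.97) and 6.75 to 8.05 CPM in MEIS1-OE (median 7.49), without overlap, and its log2 fold change was -0.26 (SE 0.08, adjusted p = 0.0370, edgeR). Leaving out replicate 1, 2, 4 or 6 of every condition ended this call, with adjusted p up to 0.148. GRM4, an inhibitory metabotropic receptor, had 1 count in all ctrl-OE libraries together and 10 in MEIS1-OE, a ratio of 10.7 with a 95% counting interval of 1.53 to 466.5 (adjusted p = 0.0315, edgeR). Its call was lost without replicate 3, 4, 5 or 6, and with only the compared groups in the fit, with adjusted p up to 0.168, and DESeq2 gave no adjusted p for it. Its fitted log2 fold change of 2.66 became 0.74 with a prior count of 2.

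**Figure D2:**
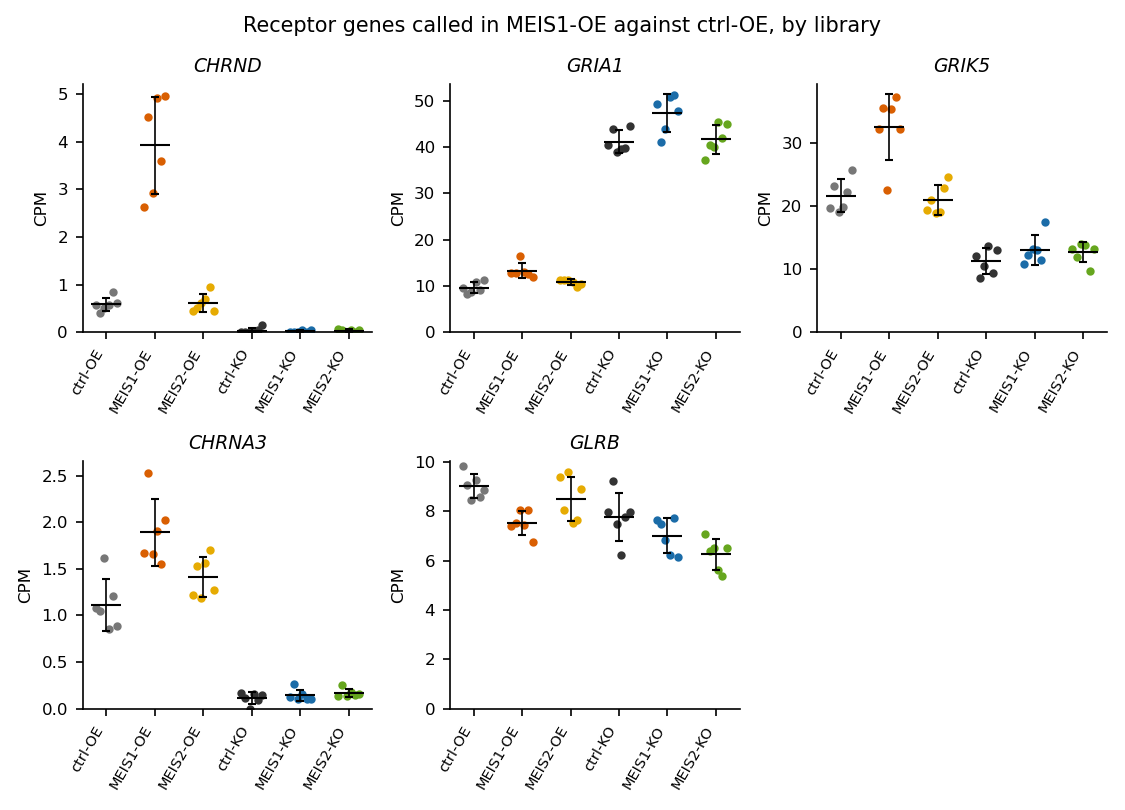
CPM of 5 of the receptor genes called in MEIS1-OE against ctrl-OE, by condition, each on a linear axis from 0. Points are libraries, horizontal bars means and whiskers SD (n = 6). CHRND is at 2.64 to 4.95 CPM in MEIS1-OE and below 1 CPM elsewhere, GLRB in MEIS1-OE lies below ctrl-OE, and replicate 3 of MEIS1-OE is the low point of GRIK5 and the high point of GRIA1.

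MEIS proteins bind DNA through a short motif whose core reads TGACAG, or CTGTCA on the other strand. The promoter windows of RefSeq (GRCh38.p14, 250 bases before to 50 bases after a start) cover 51 of the 65 receptor genes. TGACAG in either orientation occurs in 15.8% of all 35116 windows and in 14 of the 73 windows of receptor genes (19.2%), which belong to 11 of the 51 genes. Of the genes called in MEIS1-OE, the window of CHRNA3 and 1 of 2 windows of GRIA1 hold it, and those of CHRND, GRIK5, GRM4 and GLRB do not. The 3 promoters of the 250 bases before the start and the 30 bases around the GRIA1 match are shown because these genes rose in MEIS1-OE, with the motif in capitals. They are CHRND at chr2:232525910-232526159 (plus strand), CHRNA3 at chr15:78620997-78621246 (minus strand), GRIK5 at chr19:42070207-42070456 (minus strand) and GRIA1 at chr5:153490669-153490698 (plus strand), all on GRCh38.p14 and written 5′ to 3′ of the gene.
CHRND: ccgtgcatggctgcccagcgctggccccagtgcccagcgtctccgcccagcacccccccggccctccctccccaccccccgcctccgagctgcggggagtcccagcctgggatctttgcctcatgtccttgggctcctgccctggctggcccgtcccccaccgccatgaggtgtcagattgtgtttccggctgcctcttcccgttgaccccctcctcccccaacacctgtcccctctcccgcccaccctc
CHRNA3: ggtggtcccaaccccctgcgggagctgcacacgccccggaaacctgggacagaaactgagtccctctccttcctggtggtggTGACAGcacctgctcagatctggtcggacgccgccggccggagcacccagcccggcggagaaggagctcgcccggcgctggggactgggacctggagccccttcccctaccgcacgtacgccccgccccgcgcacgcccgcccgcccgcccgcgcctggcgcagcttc
GRIK5: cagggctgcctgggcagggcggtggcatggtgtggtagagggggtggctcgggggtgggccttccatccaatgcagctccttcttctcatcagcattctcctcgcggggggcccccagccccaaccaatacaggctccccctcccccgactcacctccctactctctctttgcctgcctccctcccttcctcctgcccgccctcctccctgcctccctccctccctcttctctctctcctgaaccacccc
GRIA1: cagttaatctggCTGTCAgttggtgttaac
In CHRNA3 the match begins 168 bases before the start, and in GRIA1 it begins at base 12 of the transcript. A match of these letters describes the window only, and binding was not measured here.

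In MEIS2-OE 0 of 44 receptor genes were called by the edgeR test, where 1.35% of all tested genes were, and DESeq2 called 0 as well. At an unadjusted p under 0.05 there were 3, namely CHRNA3, GRIA1 and GRM3, where 7.64% of all genes were under it. GRIA1 was 10.8 ± 0.605 CPM in MEIS2-OE against 9.61 ± 1.21 CPM in ctrl-OE (SD, n = 6 each), a log2 fold change of 0.17 (SE 0.08, adjusted p = 0.5804). GRM3 was 18.9 ± 1.57 CPM in MEIS2-OE against 20.9 ± 1.94 CPM in ctrl-OE (SD, n = 6 each), a log2 fold change of -0.15 (SE 0.06, adjusted p = 0.550). For CHRND the log2 fold change was 0.08 with an SE of 0.27.

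The paralogs were compared directly, since both activations share ctrl-OE. Between MEIS1-OE and MEIS2-OE 4 receptor genes were called, all higher in MEIS1-OE, which is 9.09% of those tested against a background of 7.75% of all genes (4.93% higher, 2.82% lower). CHRND differed by a log2 fold change of 2.68 (SE 0.21, adjusted p = 6.58e-13, edgeR), and every MEIS1-OE library lay above every MEIS2-OE library. GRIK5 differed by 0.63 (SE 0.11, adjusted p = 8.81e-05, edgeR), with 5 of 6 MEIS1-OE libraries above all MEIS2-OE libraries. GRIA1 differed by 0.29 (SE 0.08, adjusted p = 0.0116, edgeR) without overlap, and GRM3 by 0.25 (SE 0.06, adjusted p = 0.00823, edgeR) with 5 of 6 libraries above. The GRIA1 call was lost without replicate 3 or 5, up to an adjusted p of 0.0657, and the GRM3 call without replicate 5 and with only the compared groups, up to 0.1196, so 2 calls remained without replicate 5. CHRNA3, whose means were 1.89 CPM in MEIS1-OE and 1.41 CPM in MEIS2-OE, had a log2 fold change of 0.42 (SE 0.15) and an adjusted p of 0.0923.

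In MEIS1-KO 0 of 44 receptor genes were called by edgeR and 0 by DESeq2, where 1.46% of all tested genes were called by edgeR. There were 6 at an unadjusted p under 0.05, where 11.6% of all genes were, the first being GRIA1 with a log2 fold change of 0.20 (SE 0.07, adjusted p = 0.172). GRIA1 was 41.2 ± 2.40 CPM in ctrl-KO and 47.3 ± 4.04 CPM in MEIS1-KO (SD, n = 6 each). CHRNA10, a nicotinic subunit known from the inner ear, which shares 133 bases of exon with NUP98 on the same strand, was 0.980 ± 0.160 CPM in ctrl-KO and 1.40 ± 0.316 CPM in MEIS1-KO (SD, n = 6 each; log2 fold change 0.52, SE 0.19, adjusted p = 0.196, edgeR).

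The MEIS1 contrast is the effect of overexpression minus that of knockout. In it 0 of the 44 receptor genes described and tested were called by edgeR, where 3.48% of all genes were, 7 had an unadjusted p under 0.05 (13.1% of all genes), and DESeq2 called 1, CHRND. The log2 difference of CHRND was 3.54 with an SE of 1.26 and an adjusted p of 0.133 in edgeR, with 4 counts in ctrl-KO and 2 in MEIS1-KO in all. GRM3 had a log2 difference of 0.25 (SE 0.09, adjusted p = 0.128, edgeR). CHRNA3, which rose in MEIS1-OE, had a log2 difference of 0.45 (SE 0.50, adjusted p = 0.854, edgeR). GRIA1 and GRIK5, which also rose there, had a higher mean in MEIS1-KO than in ctrl-KO as well, without a call. For GRIK5 these means were 13.1 ± 2.34 and 11.2 ± 2.05 CPM (SD, n = 6 each). In the MEIS2 contrast 0 of 44 receptor genes were called by edgeR (2.57% of all genes), 0 by DESeq2, and 1, CHRNA5, had an unadjusted p under 0.05, where 15.1% of all genes did.

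**Figure D3:**
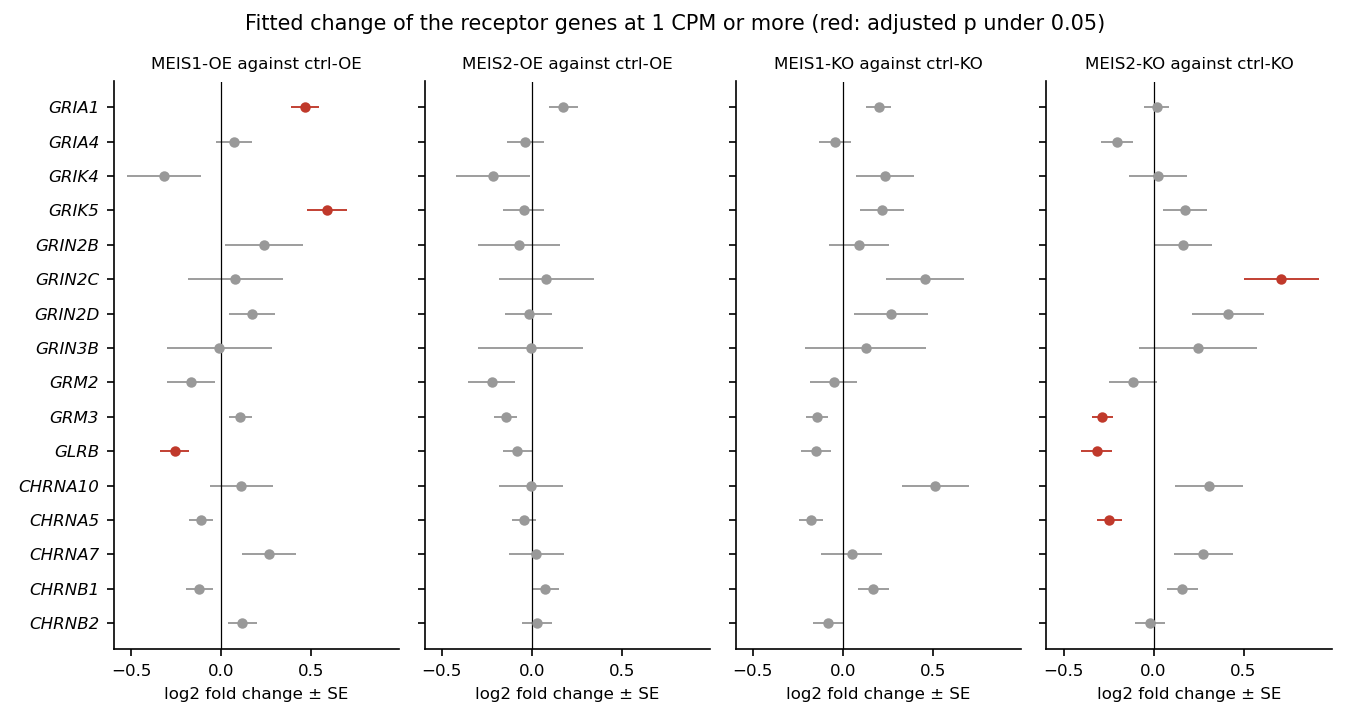
Fitted log2 fold change with SE of the 16 receptor genes at 1 CPM or more, in the 4 comparisons with a control, each from 6 against 6 libraries. Red points are past an adjusted p of 0.05: GRIA1, GRIK5 and GLRB in MEIS1-OE, and GRIN2C, GRM3, GLRB and CHRNA5 in MEIS2-KO.

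In MEIS2-KO 4 receptor genes were called, of which GRIN2C rose and GRM3, CHRNA5 and GLRB fell. This is 9.09% of the genes tested, near the 10.0% of all genes called in this comparison (4.04% higher and 5.98% lower). Among genes with at least 1 CPM, 4 of 16 receptor genes (25%) and 13.9% of all genes were called. GRM3 (chromosome 7 from 86273225 to 86494195, plus strand) was 48.6 to 56.2 CPM in ctrl-KO (median 53.4) and 41.3 to 45.8 CPM in MEIS2-KO (median 43.6). The groups did not overlap, and the log2 fold change was -0.28 (SE 0.06, adjusted p = 0.00201, edgeR).

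The other 3 genes overlapped between the groups. GLRB was 6.23 to 9.22 CPM in ctrl-KO (median 7.87) and 5.39 to 7.10 CPM in MEIS2-KO (median 6.45), a log2 fold change of -0.32 (SE 0.09, adjusted p = 0.0135, edgeR). CHRNA5 (chromosome 15 from 78857862 to 78887611, plus strand) was 19.2 to 24.1 CPM in ctrl-KO (median 21.7) and 17.1 to 19.4 CPM in MEIS2-KO (median 18.3), a log2 fold change of -0.25 (SE 0.07, adjusted p = 0.0149, edgeR). GRIN2C, an NMDA receptor subunit of the cerebellum (chromosome 17 from 72838162 to 72857627, minus strand), was 1.24 to 2.83 CPM in ctrl-KO (median 2.00) and 2.08 to 4.59 CPM in MEIS2-KO (median 3.35), a log2 fold change of 0.71 (SE 0.21, adjusted p = 0.0241, edgeR). These 3 calls were not made in every fit with 5 libraries a group, though none changed sign. GLRB was lost without replicate 2 or 5, up to an adjusted p of 0.0900 and with log2 fold changes of -0.27 and -0.28, CHRNA5 without 2, 4 or 5, up to 0.114 (-0.23 to -0.19), and GRIN2C without 2, 4 or 6, up to 0.153 (0.55 to 0.70). The count of calls was 1 without replicate 2, and 2 without replicate 4 or without replicate 5. With the added fold threshold GRIN2C remained (2.27% of those tested), where 1.58% of all genes were called.

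The GC content of transcripts moved with the fold changes of MEIS2-KO. Across 12612 genes at 1 CPM or more with a GC value, which are not independent replicates, Spearman's rho between log2 fold change and GC was 0.520 in MEIS2-KO and 0.240 in MEIS1-OE. It was 0.343 in MEIS1-KO and -0.247 in MEIS2-OE. For MEIS1-OE against MEIS2-OE it was 0.401, and for MEIS1-KO against MEIS2-KO -0.525. In the MEIS1 contrast it was -0.033 and in the MEIS2 contrast -0.558. The genes that fell in MEIS2-KO had a GC content of 37.2% (GLRB), 41.9% (CHRNA5) and 50.3% (GRM3), and GRIN2C, which rose, had 60.8%. With the GC trend of each library as an offset in the fit, an alternative chosen after seeing the data, 3 of the 4 calls of MEIS2-KO remained. GLRB did not, with a log2 fold change of -0.21 and an adjusted p of 0.0811. All 6 calls of MEIS1-OE remained in that fit. Cell type markers moved in MEIS2-KO as well. The summed stem cell markers were 4397 to 4960 CPM in ctrl-KO and 4981 to 6093 CPM in MEIS2-KO, and the summed neuron markers 220.5 to 235.6 and 243.9 to 276.7 CPM, both without overlap. Within the stem cell list the means of SOX2 (300.3 and 244.4 CPM), SOX1 (103.7 and 82.7 CPM) and PAX6 (37.2 and 26.1 CPM) were lower in MEIS2-KO. FABP7, MSI1 and HES5 were lower as well. The means of NES, VIM, HES1 and NOTCH1 were higher, and NES and VIM make up most of the sum. Within the neuron list NEFL (95.6 and 118.3 CPM) rose most, and SNAP25, SYN1 and INA were also higher. SYT1 (52.2 and 50.6 CPM), DCX and STMN2 were lower, and RBFOX3 had at most 1 count in any library. In MEIS1-KO the sums were 4750 to 6108 CPM for stem cell and 235.3 to 259.6 CPM for neuron markers, which overlapped ctrl-KO. In MEIS1-OE the neuron sum was 216.8 to 245.6 CPM, beside 200.4 to 219.97 CPM in ctrl-OE. Its stem cell sum was 3329 to 4280 CPM, beside 3039 to 3957 CPM in ctrl-OE. The means of NES, VIM, NOTCH1, MSI1 and HES1 were higher in MEIS1-OE, and those of SOX2, PAX6, SOX1, FABP7 and HES5 lower. Of the neuron markers NEFL, SYT1, INA and STMN2 had the higher mean in MEIS1-OE, and SNAP25, SYN1, DCX and RBFOX3 the lower. The part of the markers in the receptor differences of MEIS2-KO, MEIS1-KO and MEIS1-OE was not tested.

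MEIS1-KO and MEIS2-KO share ctrl-KO and were compared directly. By edgeR 0 of 44 receptor genes were called, 2 had an unadjusted p under 0.05 (GRIA1 and GRM3, beside 5.68% of all genes), DESeq2 called 0, and 0.0152% of all genes were called by edgeR. GRM3 was 48.1 ± 3.67 CPM in MEIS1-KO and 43.7 ± 1.93 CPM in MEIS2-KO (SD, n = 6 each; log2 fold change 0.14, SE 0.06, adjusted p = 0.855). For GRIN2C the log2 fold change was -0.25 (SE 0.20, adjusted p = 0.887). That MEIS2-KO but not MEIS1-KO passed the threshold for these genes is therefore not shown to be a difference between the knockouts.

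**Figure D4:**
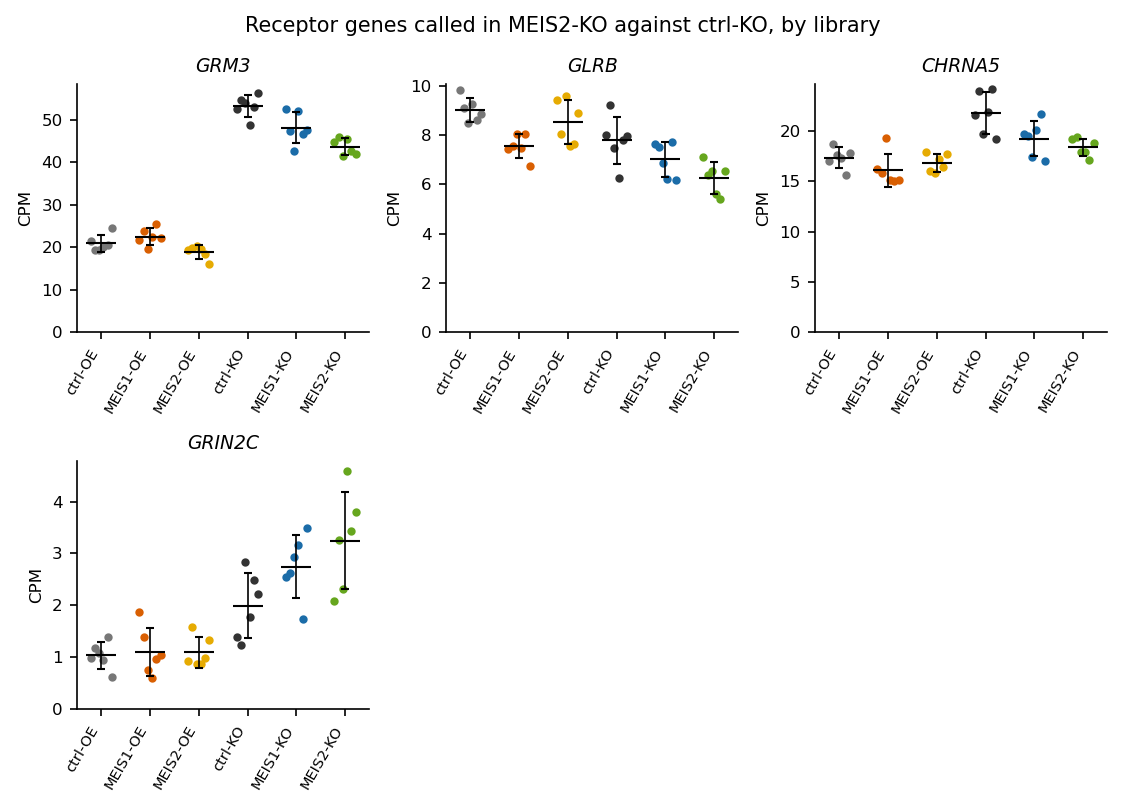
CPM of the 4 receptor genes called in MEIS2-KO against ctrl-KO, by condition, each on a linear axis from 0. Points are libraries, horizontal bars means and whiskers SD (n = 6). GRM3 does not overlap between ctrl-KO and MEIS2-KO, and MEIS1-KO lies between them in the mean for all 4 genes.

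More receptor genes differed between the control groups, which carry different lentiviral systems and non-targeting guides, than in any comparison with a control. Of the 44 tested, 22 (50%) differed between ctrl-OE and ctrl-KO, and 51.4% of all genes did (27.5% higher in ctrl-OE and 23.9% lower), so their share was near the background. Higher in ctrl-OE were 9 and lower were 13. With the added fold threshold 20 of the 44 (45.5%) remained, and 22.1% of all genes were past it. Among genes at 1 CPM or more, 11 of 16 receptor genes (68.8%) and 62.8% of all genes were called.

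By family, the AMPA genes GRIA1 and GRIA4 were lower in ctrl-OE, and GRIA2, the other AMPA gene tested, was not called. GRIA1 was 8.28 to 11.3 CPM in ctrl-OE and 38.9 to 44.5 CPM in ctrl-KO (log2 fold change -2.10, SE 0.08, adjusted p = 3.14e-23, edgeR). GRIA4 was 4.07 to 6.75 CPM and 15.4 to 17.7 CPM (log2 fold change -1.47, SE 0.10). Of the kainate genes, GRIK5 was higher in ctrl-OE by 0.94 on the log2 scale (SE 0.12), and GRIK4 and GRIK2 were lower (log2 fold changes -1.08 and -0.97). The NMDA genes split: GRIN2D (2.16, SE 0.17) and GRIN1 (2.11, SE 0.48) were higher in ctrl-OE on the log2 scale, and GRIN2B (-1.43, SE 0.19) and GRIN2C (-0.95, SE 0.24) were lower. GRIN2B and GRIN2D are expressed early in brain development and GRIN2C later. Each of the 3 metabotropic genes called was lower in ctrl-OE. They were GRM3, at 19.3 to 24.5 CPM in ctrl-OE and 48.6 to 56.2 CPM in ctrl-KO (log2 fold change -1.35, SE 0.06), GRM5 (-1.60, SE 0.49) and GRM8 (-1.51, SE 0.34). GRM5-AS1 covers 50.2% of the GRM5 exons on the opposite strand, which makes its counts uncertain.

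The GABA-A genes GABRR2 (log2 fold change -1.06, SE 0.40) and GABRP were lower in ctrl-OE. GABRP had 40 counts in ctrl-KO and 3 in ctrl-OE, a ratio of 16.0 with a 95% counting interval of 5.10 to 81.0. GLRB was higher in ctrl-OE by a log2 fold change of 0.21 (SE 0.08, adjusted p = 0.0272, edgeR). Of the nicotinic genes, CHRNB1 was 25.5 to 29.9 CPM in ctrl-OE and 7.10 to 10.4 CPM in ctrl-KO (log2 fold change 1.68, SE 0.08, adjusted p = 1.29e-19, edgeR), and CHRNA3 and CHRND had log2 fold changes of 3.21 (SE 0.27) and 3.81 (SE 0.51). The fold change of CHRND rests on 4 counts in ctrl-KO and became 2.33 with a prior count of 2. CHRNA4, the partner of CHRNB2 in the main nicotinic receptor of brain, had 24 counts in ctrl-OE and 3 in ctrl-KO, a ratio of 6.66 with a 95% counting interval of 2.02 to 34.5. CHRNA5 was lower in ctrl-OE (-0.33, SE 0.07), while CHRNB2 at 16.2 ± 1.48 CPM in ctrl-OE and 15.6 ± 1.32 CPM in ctrl-KO (SD, n = 6 each) was not called. Of the muscarinic genes, CHRM4, which shares 49 bases of exon with MDK on the opposite strand, was higher in ctrl-OE (1.70, SE 0.39) and CHRM3 lower (-0.93, SE 0.35).

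The largest adjusted p of these 22 calls was the 0.0272 of GLRB. Of them the following ended without single replicate numbers: CHRM3 without 4 or 6 (adjusted p up to 0.0863), CHRNA4 without 6 (0.0824), GABRR2 without 2, 4 or 6 (up to 0.110), GLRB without 1 or 4 (up to 0.114) and GRIK2 without 3, 4, 5 or 6 (up to 0.0617). The median GC content was 61.7% in the 9 genes higher in ctrl-OE and 44.9% in the 13 lower ones, and Spearman's rho of log2 fold change and GC was 0.244 over the 12612 genes. With the GC trend as an offset 22 genes were called again. The summed level of the neural stem cell markers was 3039 to 3957 CPM in ctrl-OE and 4397 to 4960 CPM in ctrl-KO, without overlap, and GJA1, the only astrocyte marker at 1 CPM or more, had means of 108.3 and 254.1 CPM. NES and VIM make up most of the stem cell sum, and NOTCH1 was the other way, at 103.5 CPM in ctrl-OE and 92.1 CPM in ctrl-KO, as was the astrocyte marker GFAP, at 0.210 and 0.0478 CPM. The summed neuron markers were 200.4 to 219.97 CPM in ctrl-OE and 220.5 to 235.6 CPM in ctrl-KO, although INA (92.9 and 71.8 CPM) and SYN1 (7.71 and 4.38 CPM) had the higher mean in ctrl-OE. The part of these marker differences in the receptor differences was not tested. Vector, guide and any difference in handling between the systems cannot be told apart in this comparison.

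**Figure D5:**
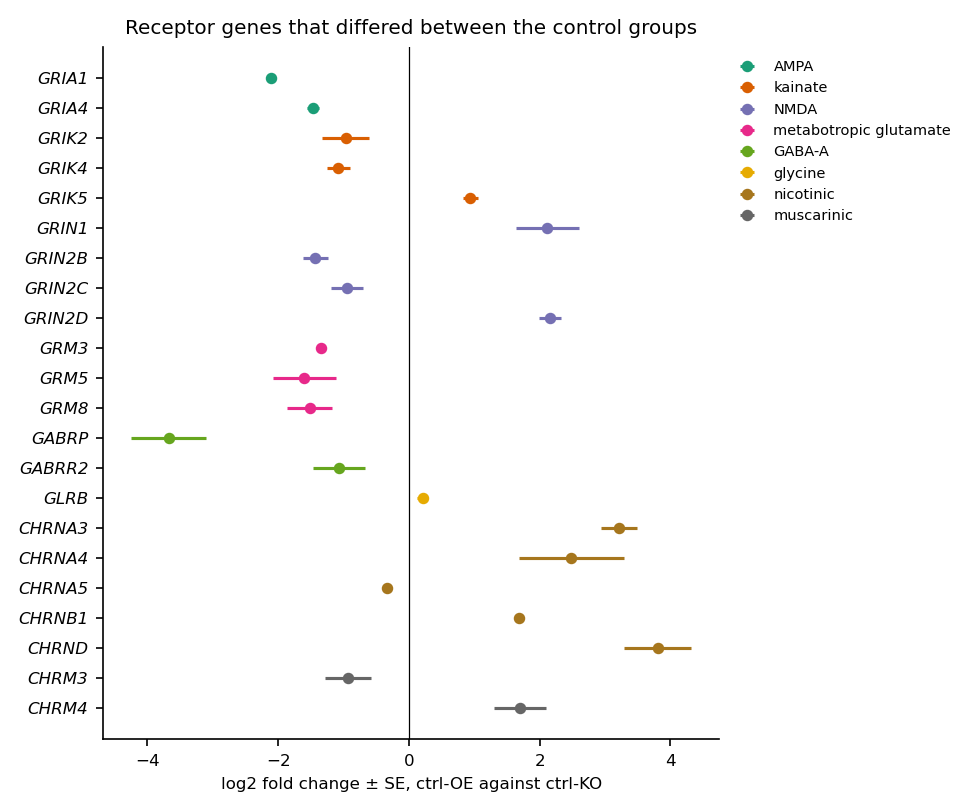
Log2 fold change with SE of the 22 receptor genes called between ctrl-OE and ctrl-KO (6 libraries each), coloured by family. Positive values are higher in ctrl-OE. The AMPA, metabotropic glutamate and GABA-A genes shown all lie below 0, and the NMDA, kainate, nicotinic and muscarinic genes lie on both sides.

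Summed over families, kainate receptor mRNA was 22.8 ± 2.76 CPM in ctrl-OE, 33.5 ± 5.19 CPM in MEIS1-OE and 22.1 ± 2.39 CPM in MEIS2-OE (SD, n = 6 each), and the AMPA sum was 15.7 ± 2.00, 19.6 ± 2.41 and 16.7 ± 1.18 CPM in the same order. These sums follow GRIK5 and GRIA1, which make up most of them. The nicotinic sum was 66.4 ± 2.24 CPM in ctrl-OE and 69.1 ± 4.62 CPM in MEIS1-OE, and the sum of the metabotropic genes described was 24.1 ± 2.19 and 25.2 ± 2.06 CPM. In the knockouts the latter was 57.2 ± 2.92 CPM in ctrl-KO, 51.7 ± 3.67 CPM in MEIS1-KO and 47.2 ± 1.85 CPM in MEIS2-KO (SD, n = 6 each).

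Genes that work with these receptors were looked up as lists, in which 74 genes were tested. In MEIS1-OE, of 23 tested scaffold and clustering genes 1 rose and 2 fell. GABARAPL1, a relative of the GABA-A receptor-associated protein, rose by a log2 fold change of 0.20 (SE 0.05). GPHN, the gene of gephyrin, fell from 30.2 to 25.9 CPM (log2 fold change -0.22, SE 0.06, adjusted p = 0.00898, edgeR), and HOMER1, a scaffold of metabotropic glutamate receptors, fell with an adjusted p of 0.04998. Of 11 tested auxiliary subunits of glutamate receptors, CACNG8, an AMPA receptor partner, rose from 70.5 to 89.8 CPM (log2 fold change 0.35, SE 0.04, adjusted p = 1.10e-07, edgeR), and CACNG4 and NETO1 fell by 0.27 and 0.28 on the log2 scale. Of 11 genes of transmitter synthesis and breakdown, GAD1, which makes GABA, rose from 0.199 to 0.693 CPM (log2 fold change 1.77, SE 0.37, adjusted p = 0.000892, edgeR). ABAT, which breaks GABA down, fell from 58.7 to 41.7 CPM (log2 fold change -0.49, SE 0.06, adjusted p = 2.28e-07, edgeR), and GLDC, GLS2 and SHMT1 fell as well. Of 11 transporters SLC1A3, a glutamate carrier of glia and progenitors, fell from 9.05 to 6.403 CPM (log2 fold change -0.50, SE 0.14, adjusted p = 0.0140, edgeR). Of 6 nicotinic chaperones, 5 genes of GABA-A assembly and 8 relatives of the receptors outside the symbol families, 0 were called in MEIS1-OE by edgeR or DESeq2. At an unadjusted p under 0.05 were 0, 2 and 1 of them, where 20.1% of all tested genes were. Over all lists 12 of 74 genes (16.2%) were called, 3 higher (4.05%) and 9 lower (12.2%), beside the 9.10% of all tested genes (5.52% higher, 3.58% lower).

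CACNG8 was also past the threshold in the MEIS1 contrast (log2 difference 0.30, SE 0.06), as was DLG3, a scaffold of NMDA receptors (0.24, SE 0.06). They are 2 of the 74 list genes (2.7%), beside 3.48% of all tested genes. In MEIS2-OE the calls in the lists were GRID1, which encodes a δ glutamate receptor, from 0.1254 to 0.532 CPM (log2 fold change 2.04, SE 0.45, adjusted p = 0.00775, edgeR), and GLUL, the glutamine synthetase gene, which fell by 0.15 on the log2 scale. These 2 calls are 2.7% of the list genes, beside 1.35% of all tested genes. In MEIS1-KO 0 of the 74 list genes were called by edgeR, 1 by DESeq2, and 8 had an unadjusted p under 0.05. Of all tested genes 1.46% were called by edgeR and 11.6% had an unadjusted p under 0.05. In MEIS2-KO 7 of the 74 (9.46%) were called, a share near the 10.0% of all genes, and each was lower, where 5.98% of all genes were lower. They were CACNG4, NETO2, DLG3, GRIP1, ABAT, GLDC and SLC1A3, with log2 fold changes between -0.45 for SLC1A3 and -0.16 for NETO2.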

How the data were processed

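The count table deposited by the authors holds whole numbers of reads per gene and library, without normalization, for 28516 gene symbols and 36 libraries, each assigned to its condition by its label. Stranded poly-A libraries were read for 100 bases at each end of a fragment. The design text names STAR 2.4.2a and HTSeq 0.6.0, while the submitters' processing notes list STAR 2.7.0a, Trimmomatic 0.39 and hg19. The gene annotation and strand setting are not given in the sources used here, so reads of overlapping genes on opposite strands may be shared. Depth was 15429985 to 22940493 counts per library (median 20324720).

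Genes with at least 10 counts in all were kept (19689). TMM factors, dispersions and two-sided quasi-likelihood F tests came from edgeR 4.0.16 (limma 3.58.1, R 4.3.3), in a single fit of 6 conditions, with Benjamini-Hochberg adjustment over all tested genes of each of 9 comparisons. A call is an adjusted p under 0.05. The standard error (SE) is the log2 fold change divided by the root of F. The procedure was tested on simulated counts of MEIS1-OE against ctrl-OE, with 200 of 19519 genes changed by 1 on the log2 scale. The changed genes were drawn only from those at 1 CPM or more. Of the 200, edgeR recovered 198 with 6 false calls, and DESeq2 1.42.0 recovered 198 with 17. The simulated counts were drawn independently from the fitted spread, without the GC trends of the real libraries. These false calls therefore do not measure those in the real data. Recovery of genes under 1 CPM, which include 28 of the 44 tested receptor genes, was not measured.

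Receptor genes are those whose symbols match the family names. Genes called in any comparison and those at 1 CPM or more are named with values, and the rest are given by counts. Some genes of the receptor families, the related lists and the markers are not reported here, and every count, share and sum over these genes leaves them out, while the fits and the adjustment include all tested genes. The members and the lists of related genes and markers were chosen with earlier results of these data known. Positions and lengths are from GENCODE lifted to GRCh37, and GC values were found for all 65 receptor genes described and 87.0% of tested genes. Alternatives were RLE size factors, filterByExpr or no filter, DESeq2, a higher prior count of 2, a block for the replicate number, a fit restricted to the groups of a comparison, the omission of each replicate number in turn, the fold threshold of 0.58 and, added after seeing the data, a GC offset. Libraries of a condition differed beyond counting error, with a chi-square per degree of freedom of 2.74 to 38.6, and none was a duplicate. Summaries and plots were made in Python 3.11.15 (pandas 2.3.3, numpy 2.4.6, matplotlib 3.10.9, scipy 1.17.1).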

Additional observations from a re-analysis of the deposited data

Results flagged for a closer look

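In 18 receptor genes, 108 sets of 6 libraries were searched for a library far from the others by Dixon's criterion, which chance meets in about 1 of 20 sets, and 8 were found. In MEIS1-OE it was replicate 3 for 3 genes: GRIA1 at 16.5 CPM, CHRNA5 at 19.3 CPM (both the highest) and GRIK5 at 22.5 CPM (the lowest). In MEIS1-KO replicate 6 was highest for GRIK5 at 17.4 CPM and GRIN2B at 2.72 CPM, and replicate 2 for CHRNA3 at 0.262 CPM. CHRNA10 was highest in replicate 6 of MEIS2-OE at 1.56 CPM, and CHRND in replicate 6 of ctrl-KO at 0.145 CPM, which is 3 counts.

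The effects of the 2 activations differed, by the direct edgeR test of MEIS1-OE against MEIS2-OE, for CHRND (log2 fold change 2.68), GRIK5 (0.63), GRIA1 (0.29) and GRM3 (0.25).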

How the results depend on the processing

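Of 36 calls of a receptor gene in a comparison, 24 were made in every one of 14 alternative fits that tested the gene, and none changed sign in any of them. Leaving out replicate numbers gave 4 to 5 calls in MEIS1-OE, 1 to 4 in MEIS2-KO, 2 to 4 between MEIS1-OE and MEIS2-OE and 18 to 22 between the controls. An absolute log2 fold change above 0.58 left 1 call in MEIS2-KO and 2 between MEIS1-OE and MEIS2-OE. The GC offset gave 1 call in MEIS1-KO (GRIA1) and 2 in the MEIS1 contrast (GRIK5 and GRM3), and DESeq2 gave 1 in the MEIS1 contrast (CHRND). The cause of these changes was not tested. Apart from the 1.58% of all genes past the fold threshold in MEIS2-KO, the share of all genes called is not given for the alternatives in this paragraph. These counts therefore do not show whether receptor genes gained or lost calls more than other genes. The filter of filterByExpr, which tests fewer genes, gave 15 calls between the controls in place of 22. With replicate number as a block the counts stayed at 6 in MEIS1-OE, 4 in MEIS2-KO, 4 between MEIS1-OE and MEIS2-OE, 22 between the controls and 0 in the other 5 comparisons. The mean correlation of deviations was 0.0361 for libraries with the same number, above 0.1 in 16 of 90 pairs, and -0.00732 for others, so the numbers were not taken as pairs. A prior count of 2 moved the log2 fold changes of low genes between the controls to 1.14 for CHRNA4, -1.91 for GABRP, 1.20 for GRIN1 and -0.92 for GRM5. The 21 untested genes had at most 9 counts each over all libraries, and in the fit without a filter, which took in 17 of them, edgeR called 0 in the 9 comparisons (lowest adjusted p = 0.0615, with 4 results at an unadjusted p under 0.05).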
